A study of Mus musculus with 8 samples.

Results

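The scavenger and mannose receptor genes Msr1, Marco, Cd36, Olr1, Mrc1, Cd163 and Stab1 were followed in mouse macrophages exposed to lipopolysaccharide (LPS, from the outer membrane of Gram-negative bacteria), to interferon beta (IFNb, a type I interferon), or to both. They were chosen by gene symbol and make up 7 of the 30284 genes with a value. RNA sequencing gave 8 libraries, 2 per group: LPS for 4 h, IFNb for 4 h, IFNb for 4 h and then LPS for 4 h (called LPS+IFNb), and saline for 4 h. All groups were male C57BL6 mice aged 7 weeks, with no transgene or deletion named, and the stimulus was given in the peritoneum. The LPS+IFNb libraries were therefore taken later after IFNb than the IFNb libraries, and no group received IFNb and then saline. Whether both libraries of a group came from different mice, whether mice were pooled and how macrophages were purified are points on which the labels are silent. The p-values therefore reflect only the variation among these libraries, and this can be technical.

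Scavenger receptors are cell-surface proteins of unrelated folds that bind modified lipoproteins, bacterial surface molecules and dying cells and carry them into the cell. The mannose receptor, encoded by Mrc1, takes up glycoproteins that end in mannose, fucose or N-acetylglucosamine, and is widely used as a marker of macrophages conditioned by interleukin 4. Tissue macrophages, those of the peritoneal cavity among them, use these receptors to clear debris and microbes, and several of them also feed lipid or iron into the cell.

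Values were deposited as TPM, an abundance corrected for transcript length that can be compared between genes within a library. A gene was tested when it reached 1 TPM in at least 2 libraries, which kept 13009 genes and 6 of the 7 receptors. Cd163 was below that level in every library. Changes are differences of log2(TPM + 1) with their standard error (SE) from limma fitted to all 8 libraries, and a gene was called changed at a Benjamini-Hochberg adjusted p under 0.05. Levels are the 2 library values, or their mean ± SD (n = 2).

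Each library has the same TPM total, and the median tested gene was lower than in saline by -0.38 (log2) with LPS, -0.37 with IFNb and -0.62 with LPS+IFNb. Median-ratio scaling, which centres most genes on no change, moved those medians up by 0.40, 0.34 and 0.63, so small falls were sensitive to the scaling. Over the tested genes, the correlation was 0.971 to 0.983 within groups and 0.823 to 0.951 between groups. The 6 macrophage markers summed to 13630 to 21760 TPM per library and none was listed at 0, and the 6 markers of large peritoneal macrophages summed to 749 to 1269 TPM. Most of that second sum was Cd9, at 713 to 1237 TPM, while Icam2 had 7.91 to 19.6 TPM, Prg4 10.03 to 23.8 TPM, Selp 0.519 to 13.2 TPM, Gata6 0.862 to 2.11 TPM and Timd4 0.427 to 3.38 TPM. B cell markers summed to 82.0 to 154 TPM. Saline replicate 2 stood apart, since 52715 of its transcripts were above 0 and the other 7 libraries had 45973 to 49377.

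The receptors spanned a wide range of abundance. In saline libraries Cd36 was the most abundant at 1119 ± 101 TPM, followed by Stab1 at 223 ± 135 TPM, Msr1 at 106 ± 4.61 TPM, Mrc1 at 44.6 ± 2.94 TPM, Olr1 at 7.71 ± 0.151 TPM, Marco at 6.08 ± 1.80 TPM and Cd163 at 0.653 ± 0.381 TPM. Olr1 had 7.60 and 7.81 TPM beside Marco at 4.81 and 7.35 TPM, and Stab1 had 128 and 319 TPM beside Msr1 at 109 and 103 TPM. Neither pair overlapped. The means of each pair still differed by less than the gap between the Marco or the Stab1 replicates, so these orders are uncertain. Cd36 kept the highest level in all 8 libraries, whereas Olr1 reached the level of Msr1 in the LPS libraries. The plot of levels by library shows this order and the spread of each gene.

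**Figure D1:**
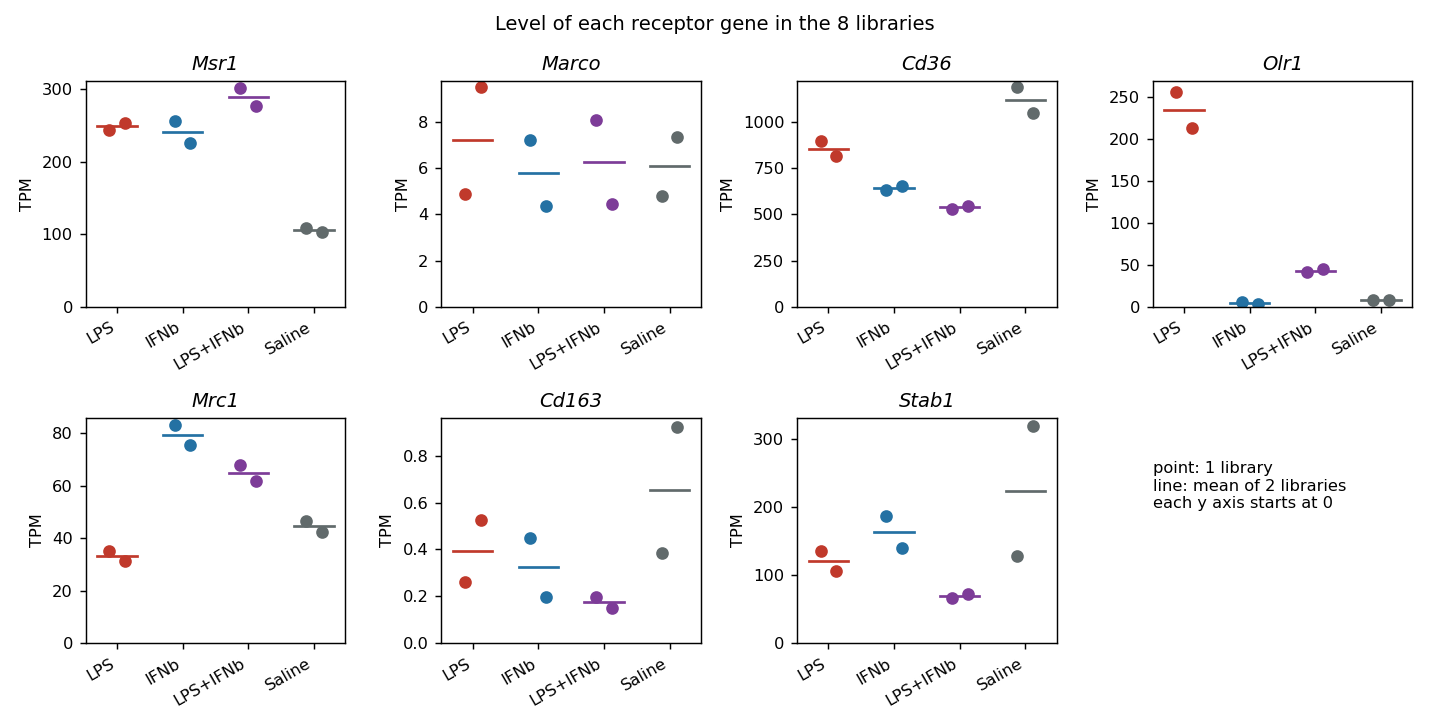
TPM of each receptor gene in the LPS, IFNb, LPS+IFNb and saline libraries, with a point for each library, a line for the mean of 2 and y axes that start at 0. Msr1 was between 226 and 302 TPM in the stimulated libraries and at 109 and 103 TPM in the saline libraries, Olr1 was highest in the LPS libraries and next highest in the LPS+IFNb libraries, and Marco, Cd163 and Stab1 showed wide gaps between replicates.

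Msr1 encodes the class A macrophage scavenger receptor, a trimeric protein that binds acetylated and oxidised lipoproteins and bacterial lipid A. The gene lies on the minus strand at chr8:39581685-39642673 (GRCm38, the mm10 build). It had 245 and 254 TPM in the LPS libraries, 257 and 226 TPM in the IFNb libraries and 302 and 277 TPM in the LPS+IFNb libraries, against 109 and 103 TPM in the saline libraries. Every stimulated library was above both saline libraries.

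Msr1 rose by a log2 change of 1.23 ± 0.09 with LPS against saline (adjusted p = 0.000142, limma), 1.18 ± 0.09 with IFNb (adjusted p = 0.000163) and 1.44 ± 0.09 with LPS+IFNb (adjusted p = 3.80e-05). It was the only receptor that rose in all 3 comparisons with saline and kept the call under all 20 alternative settings in each. LPS and IFNb alone gave levels that differed by 0.05 ± 0.09 (adjusted p = 0.718), a gap within the spread of the IFNb libraries. LPS+IFNb differed from LPS by 0.21 ± 0.09 (adjusted p = 0.124) and from IFNb by 0.26 ± 0.09 (adjusted p = 0.0652), and with median-ratio scaling both differences passed, at 0.47 (adjusted p = 0.0406) and 0.59 (adjusted p = 0.0191). The effect of LPS after IFNb was smaller than that of LPS alone by -0.97 ± 0.13 (interaction, adjusted p = 0.0081).

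The 2 annotated Msr1 transcripts encode different proteins, and they are shown at the point where they part because the groups differed in their balance. Msr1-201 has 458 codons in 10 exons and encodes the type I receptor, which ends in a cysteine-rich (SRCR) domain. Msr1-202 has 354 codons in 9 exons and encodes the shorter type II form without that domain. Both share exon 8 and then use different exons 9, at chr8:39589449-39589478 for the bases of Msr1-201 shown and at chr8:39605975-39605982 for those of Msr1-202, on the minus strand of GRCm38. The lines give the transcript strand from 5′ to 3′ from GENCODE M21, with the last 15 bases of the shared exon in lower case and the bases of the transcript's own exon in capitals. The capitals are the first 30 of the 320 coding bases particular to Msr1-201 and all 8 coding bases particular to Msr1-202.
Msr1-201: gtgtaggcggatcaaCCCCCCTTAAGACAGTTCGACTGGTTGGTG
Msr1-202: gtgtaggcggatcaaGATCAGTA

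The type I transcript Msr1-201 had 45.8 and 49.2 TPM in the LPS libraries, 91.2 and 96.6 TPM in the IFNb libraries and 87.7 and 94.9 TPM in the LPS+IFNb libraries, against 49.6 and 46.6 TPM in the saline libraries. Its LPS and saline ranges overlapped, and both groups that had received IFNb lay well above them. The type II transcript Msr1-202 had 199 and 205 TPM in the LPS libraries, 166 and 129 TPM in the IFNb libraries and 214 and 182 TPM in the LPS+IFNb libraries, against 59.4 and 56.0 TPM in the saline libraries. It was higher than saline in every stimulated library.

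In a fit over 33346 transcripts, of which 24.0% were called in LPS against saline, Msr1-202 rose by 1.79 ± 0.14 (adjusted p = 0.000628, limma) and Msr1-201 differed by -0.02 ± 0.09 (adjusted p = 0.913). In IFNb against saline, where 21.5% of transcripts were called, both rose, Msr1-201 by 0.95 ± 0.09 (adjusted p = 0.00142) and Msr1-202 by 1.33 ± 0.14 (adjusted p = 0.00196). LPS+IFNb exceeded LPS in Msr1-201 by 0.93 ± 0.09 (adjusted p = 0.00378, with 10.4% of transcripts called) and differed from it in Msr1-202 by -0.03 ± 0.14 (adjusted p = 0.933). The interaction was called in Msr1-202, at -1.36 ± 0.20 (adjusted p = 0.0273, with 2.29% of transcripts called), and was -0.02 ± 0.13 in Msr1-201 (adjusted p = 0.974).

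The type II share of Msr1 TPM averaged 81.0% ± 0.462 with LPS, 60.9% ± 5.19 with IFNb and 68.3% ± 3.65 with LPS+IFNb, against 54.5% ± 0.078 in saline (SD, n = 2). An exact permutation test of the 4 groups over 105 arrangements gave p = 0.00952, the smallest it can give, and 0.0381 after adjustment over the 4 receptor genes tested this way. The log2 ratio of Msr1-202 to Msr1-201 was higher with LPS than in saline by 1.81 ± 0.29, which did not pass in a fit over 6578 genes (adjusted p = 0.0583, limma, with 0.426% of genes called). The model of Msr1-201 has 50 noncoding bases and that of Msr1-202 has 2574, so the absolute split rests on the annotated ends of the transcripts. These transcript comparisons were added after the gene values had been seen.

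**Figure D2:**
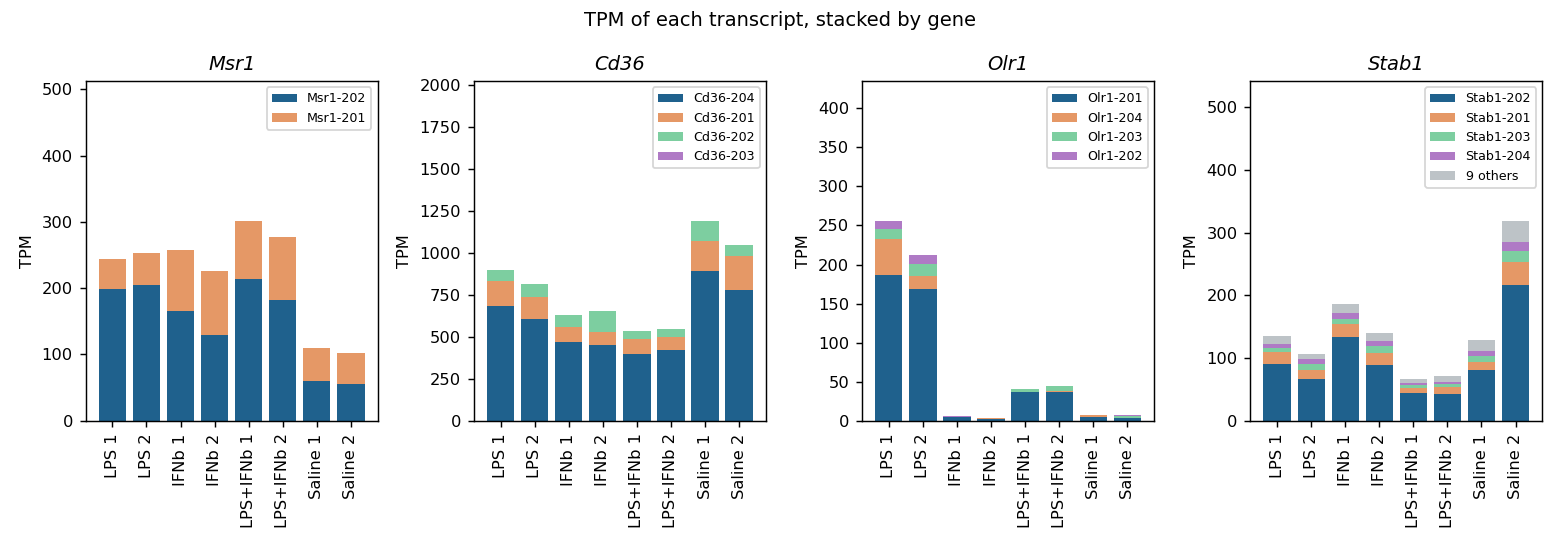
TPM of each annotated transcript of Msr1, Cd36, Olr1 and Stab1 in the 8 libraries, stacked to the gene's total, with the stimulated libraries left of the saline ones. The Msr1-202 part of the bar is 81.0% of Msr1 with LPS and 54.5% in saline on average, and the Stab1 bars consist mostly of the short noncoding Stab1-202.

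Marco encodes a second class A receptor, which binds bacteria and particles and in mice is typical of macrophages of the splenic marginal zone and the peritoneum. The gene lies on the minus strand at chr1:120474538-120505024. It had 4.89 and 9.51 TPM in the LPS libraries, 7.19 and 4.37 TPM in the IFNb libraries and 8.08 and 4.46 TPM in the LPS+IFNb libraries, against 4.81 and 7.35 TPM in the saline libraries. The ranges of all 4 groups overlapped, and the gap between replicates was larger than any gap between group means.

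The change of Marco was 0.18 ± 0.40 with LPS (adjusted p = 0.731, limma), -0.07 ± 0.40 with IFNb (adjusted p = 0.898) and 0.02 ± 0.40 with LPS+IFNb (adjusted p = 0.974), each against saline. Its sign turned when single libraries were left out. In each group the library with more Marco was also the one with the higher sum of 6 mesothelial and fibroblast markers, which was 21.2 and 51.9 TPM in the LPS libraries, 49.5 and 28.6 TPM in the IFNb libraries and 31.6 and 16.1 TPM in the LPS+IFNb libraries, against 14.96 and 66.9 TPM in the saline libraries. None of these 6 markers was listed at 0 in both libraries of a group. The neutrophil marker sum, at 256 to 382 TPM with 1 of 6 markers listed at 0 in the LPS libraries, had the same order of replicates in each group. So did the sums of 5 mast cell markers, at 41.2 to 68.8 TPM with none listed at 0, and of 5 platelet and erythroid markers, at 182 to 258 TPM with 1 listed at 0 in each stimulated group. Most of the platelet and erythroid sum was Pf4, at 176 to 254 TPM. Pf4 and Itga2b had the order of Marco in each group. The erythroid markers Hba-a1 and Hbb-bs had the opposite order in the LPS, LPS+IFNb and saline libraries. The sum of 5 markers of Lyve1-type resident macrophages, at 150 to 205 TPM with none listed at 0, also had the order of Marco in each group. Of these markers F13a1 had that order and Folr2 the opposite one. Cd163, below 1 TPM in every library, had the order of Marco too. Of the large peritoneal macrophage markers, Prg4, Selp and Gata6 had it in each group, Icam2 had the opposite order, and Cd9 and Timd4 varied. Of the macrophage markers, Adgre1 had the opposite order in each group, and none had the order of Marco in each. The part of any of these cells in the Marco values was not tested.

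**Figure D3:**
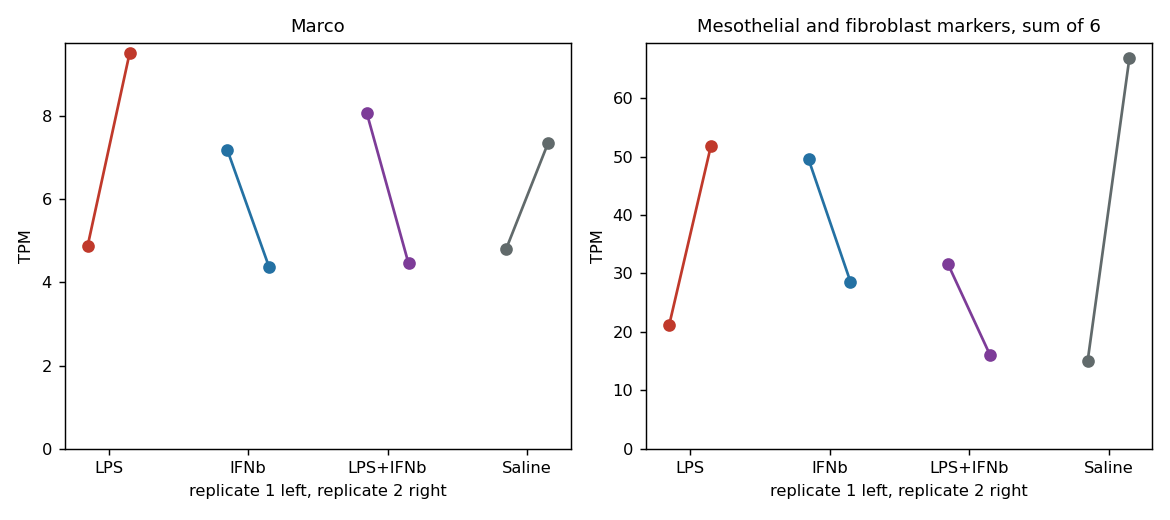
TPM of Marco and the summed TPM of 6 mesothelial and fibroblast markers in the LPS, IFNb, LPS+IFNb and saline libraries, with y axes from 0 and a line that joins the 2 libraries of a group. In each group the same library is higher in both panels, and Marco lies between 4.37 and 9.51 TPM throughout.

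Cd36 encodes a class B scavenger receptor that takes up long-chain fatty acids and oxidised low-density lipoprotein and binds dying cells. The gene lies on the minus strand at chr5:17781690-17888801. It had 897 and 815 TPM in the LPS libraries, 630 and 657 TPM in the IFNb libraries and 532 and 547 TPM in the LPS+IFNb libraries, against 1190 and 1048 TPM in the saline libraries. The 4 groups did not overlap, with saline highest and LPS+IFNb lowest.

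Cd36 was lower by -0.79 ± 0.09 with IFNb against saline (adjusted p = 0.000767, limma) and by -1.05 ± 0.09 with LPS+IFNb (adjusted p = 0.000112). With LPS alone the change was -0.38 ± 0.09 (adjusted p = 0.0119), the same as the median of all genes, and it turned to 0.08 with median-ratio scaling (adjusted p = 0.721). That scaling also ended the calls for IFNb, at -0.40 (adjusted p = 0.0853), and for LPS+IFNb, at -0.33 (adjusted p = 0.112). LPS+IFNb was lower than LPS by -0.66 ± 0.09 (adjusted p = 0.00262), or by -0.40 with median-ratio scaling (adjusted p = 0.0986). LPS exceeded IFNb by 0.41 ± 0.09 (adjusted p = 0.0124), and this call was lost without LPS replicate 1 (adjusted p = 0.0740) and without either IFNb library (adjusted p = 0.0738 and 0.0507).

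All 4 Cd36 transcripts encode the same 472 codons and differ in their untranslated ends and first exons. Cd36-204 carried 68.6% to 76.7% of the Cd36 TPM in every library. Its share did not pass a test of difference between groups (exact permutation p = 0.143 over 105 arrangements, 0.190 adjusted over 4 genes).

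Olr1 encodes LOX-1, a C-type lectin-like receptor for oxidised low-density lipoprotein that also binds bacteria and activated platelets. The gene lies on the minus strand at chr6:129485244-129507165. It had 256 and 213 TPM in the LPS libraries, 5.85 and 3.11 TPM in the IFNb libraries and 40.8 and 45.1 TPM in the LPS+IFNb libraries, against 7.60 and 7.81 TPM in the saline libraries. The 4 groups were fully separated, LPS highest and IFNb lowest.

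Olr1 rose by 4.75 ± 0.23 with LPS against saline, a 26.9-fold change of TPM + 1 (adjusted p = 2.12e-05, limma), and was number 74 among the 13009 tested genes in order of rise. With LPS+IFNb it rose by 2.33 ± 0.23 against saline (adjusted p = 0.000199) and by 3.05 ± 0.23 against IFNb (adjusted p = 0.00034). It was lower with LPS+IFNb than with LPS by -2.42 ± 0.23, a 5.33-fold difference (adjusted p = 0.000828), number 24 in order of fall. All of these calls held under the 20 alternative settings. With IFNb alone it was at -0.71 ± 0.23 against saline (adjusted p = 0.0411), a call lost under 14 of 20 alternatives, among them median-ratio scaling (-0.37, adjusted p = 0.272) and leaving out IFNb replicate 2 (-0.35, adjusted p = 0.135).

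The effect of LPS on Olr1 after IFNb was smaller than that of LPS alone by -1.70 ± 0.33 (interaction, adjusted p = 0.0305, limma). This call was lost when any LPS, LPS+IFNb or saline library was left out (adjusted p = 0.067 to 0.107), with values between -1.83 and -1.57. Full-length Olr1-201, of 363 codons, carried 73.2% and 79.5% of Olr1 TPM in the LPS libraries, and its own interaction was -2.05 ± 0.32 (adjusted p = 0.0324 over transcripts).

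Mrc1 encodes the mannose receptor CD206. The gene lies on the plus strand at chr2:14229392-14332057. It had 35.1 and 31.2 TPM in the LPS libraries, 83.3 and 75.6 TPM in the IFNb libraries and 67.8 and 61.8 TPM in the LPS+IFNb libraries, against 46.7 and 42.6 TPM in the saline libraries. The 4 groups did not overlap, with IFNb highest and LPS lowest.

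Mrc1 rose by 0.82 ± 0.11 with IFNb against saline (adjusted p = 0.00132, limma) and by 0.53 ± 0.11 with LPS+IFNb (adjusted p = 0.00422). It was 0.95 ± 0.11 higher with LPS+IFNb than with LPS (adjusted p = 0.00137), and these 3 calls were lost only when a minimum of 2-fold was asked for. With LPS alone it was at -0.42 ± 0.11 against saline (adjusted p = 0.0164), close to the median of all genes, and at 0.03 with median-ratio scaling (adjusted p = 0.889). The direct comparison of LPS with IFNb gave -1.24 ± 0.11 (adjusted p = 0.00021), which held under all 20 alternatives. LPS+IFNb differed from IFNb by -0.29 ± 0.11 (adjusted p = 0.0728), and by 0.03 with median-ratio scaling.

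The promoters of Olr1 and Mrc1 are given because these genes had opposite orders of LPS and IFNb. Both are the 250 bases before the RefSeq start site on the coding strand of GRCm38.p6, at chr6:129507166-129507415 on the minus strand for Olr1 and chr2:14229164-14229413 on the plus strand for Mrc1. Capitals mark matches, on either strand, to the AP-1 letters TGANTCA and to the PU.1 letters GAGGAA, whose reverse is TTCCTC.
Olr1: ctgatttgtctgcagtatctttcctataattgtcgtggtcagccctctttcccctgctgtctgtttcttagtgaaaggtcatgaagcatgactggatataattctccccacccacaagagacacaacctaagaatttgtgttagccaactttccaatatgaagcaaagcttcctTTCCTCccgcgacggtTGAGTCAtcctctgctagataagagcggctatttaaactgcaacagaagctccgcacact
Mrc1: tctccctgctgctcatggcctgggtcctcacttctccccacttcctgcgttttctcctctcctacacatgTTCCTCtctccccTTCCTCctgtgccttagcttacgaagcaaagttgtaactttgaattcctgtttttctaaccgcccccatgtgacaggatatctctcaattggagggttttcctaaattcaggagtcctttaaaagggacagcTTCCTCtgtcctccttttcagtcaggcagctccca

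The Olr1 window held the AP-1 letters 60 to 54 bases before the start and the PU.1 letters 76 to 71 bases before it. The Mrc1 window held the PU.1 letters at 3 places, from 180, 167 and 35 bases before the start, and letters of the NF-kB pattern 11 to 2 bases before it. RefSeq gave a window for 6 of the 7 receptors, all but Msr1. Of these, 1 held the AP-1 letters, 4 the PU.1 letters, 4 the NF-kB letters, and none the interferon patterns (ISRE, or GAS with the letters TTCNNNGAA). Of 32851 promoter windows of that length, 6.75% held the AP-1 letters, 23.3% PU.1, 17.6% NF-kB, 2.98% ISRE and 7.02% GAS. No match overlapped another. The Cd36 window lies 13896 bases from the start of its leading transcript Cd36-204, and the Stab1 window 28467 bases from that of Stab1-202. The Stab1 window directly precedes the annotated start of full-length Stab1-201. GENCODE starts Mrc1-201 at 22 bases before the RefSeq start, so the NF-kB letters of Mrc1 lie within its first exon as annotated there. A match of letters describes the sequence and does not show binding.

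Cd163 encodes the receptor that clears haemoglobin bound to haptoglobin. The gene lies on the plus strand at chr6:124304656-124330527. It had 0.263 and 0.526 TPM in the LPS libraries, 0.449 and 0.200 TPM in the IFNb libraries and 0.200 and 0.151 TPM in the LPS+IFNb libraries, against 0.383 and 0.922 TPM in the saline libraries. No library reached 1 TPM, so it was not tested, and at such levels the order of groups cannot be read. Lyve1, a marker of another resident macrophage type, was likewise at 0.0214 to 0.280 TPM, but the other listed markers of that type were higher. Folr2 had 50 to 76.6 TPM, Cbr2 28.56 to 44.85 TPM, F13a1 45.86 to 100.1 TPM and Gas6 3.29 to 11.73 TPM.

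Stab1 encodes stabilin-1, a large receptor for acetylated lipoprotein and the extracellular protein SPARC that also takes part in the uptake of dying cells. The gene lies on the minus strand at chr14:31139013-31168641. It had 136 and 106 TPM in the LPS libraries, 187 and 140 TPM in the IFNb libraries and 67.3 and 72.0 TPM in the LPS+IFNb libraries, against 128 and 319 TPM in the saline libraries. The LPS+IFNb libraries were lowest and did not overlap any other group, while the saline range overlapped the LPS range and enclosed the IFNb libraries.

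Stab1 fell by 1.52 ± 0.40 with LPS+IFNb against saline (adjusted p = 0.0124, limma). Without saline replicate 2, the library that stood apart, the fall was -0.87 (adjusted p = 0.0151), and the call was lost without LPS+IFNb replicate 1 (-1.48, adjusted p = 0.0558) and with median-ratio scaling (-0.81, adjusted p = 0.0830). The change was -0.75 ± 0.40 with LPS (adjusted p = 0.157) and -0.32 ± 0.40 with IFNb (adjusted p = 0.535). These 2 depended on which saline library was kept, at -0.09 and 0.33 without saline replicate 2 and at -1.40 and -0.97 without replicate 1, and the last pair passed (adjusted p = 0.00472 and 0.0156). LPS+IFNb against IFNb was -1.21 ± 0.40 (adjusted p = 0.0517), and it passed at the same value without either saline library (adjusted p = 0.00532 without replicate 1 and 0.00525 without replicate 2). LPS+IFNb against LPS was -0.78 ± 0.40 (adjusted p = 0.178) and passed only without saline replicate 1 (adjusted p = 0.0197), without saline replicate 2 (adjusted p = 0.0195) and in a fit to the groups compared (adjusted p = 0.0178).

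Most of the Stab1 TPM was not assigned to the full-length transcript. Of 13 annotated transcripts, 3 are protein-coding, and the 242-base noncoding Stab1-202 held 58.2% to 71.9% of the gene's TPM. Stab1-202, at chr14:31139017-31140174, lies within the span of full-length Stab1-201. TPM is corrected for length and shared reads are divided by estimation, so this split rests on the transcript models. Full-length Stab1-201, of 2571 codons, had 18.4 and 14.1 TPM in the LPS libraries, 19.8 and 18.9 TPM in the IFNb libraries and 8.43 and 11.2 TPM in the LPS+IFNb libraries, against 13.1 and 36.4 TPM in the saline libraries. The LPS+IFNb libraries were again lowest, but the difference of Stab1-201 from saline, -1.10 ± 0.44, did not pass (adjusted p = 0.0955 over transcripts, limma). Counting protein-coding transcripts alone, Stab1 was lower by -1.07 ± 0.37 with LPS+IFNb than in saline (adjusted p = 0.0308, limma).

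The counts of changed receptors stood near the background in most comparisons, since very many genes were called. In LPS against saline, 2 of the 6 tested receptors rose and 2 were lower, 4 in all, where 54.1% of all genes were called (12.8% higher, 41.3% lower). The lower ones, Cd36 and Mrc1, lost their sign with median-ratio scaling. In IFNb against saline, 2 rose (Msr1 and Mrc1) and 2 were lower (Cd36 and Olr1), where 51.6% of genes were called (13% higher, 38.6% lower). In LPS+IFNb against saline, 3 rose (Msr1, Olr1 and Mrc1) and 2 were lower (Cd36 and Stab1), where 69.4% were called (15.2% higher, 54.1% lower).

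In LPS+IFNb against LPS, 1 receptor was higher and 2 were lower, where 34.8% of genes were called (10.8% higher, 24.1% lower). In LPS+IFNb against IFNb, 1 was higher and none was lower, where 39.3% were called (8.76% higher, 30.5% lower). In LPS against IFNb, 2 were higher and 1 was lower, where 38.7% were called (16.6% higher, 22.1% lower). The interaction was called in 2 receptors, Msr1 and Olr1, both below 0, where 7.96% of genes were called (3.51% above 0 and 4.45% below). Both were genes that LPS alone had raised, but the interaction subtracts that same rise, so this is not a separate result.

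**Figure D4:**
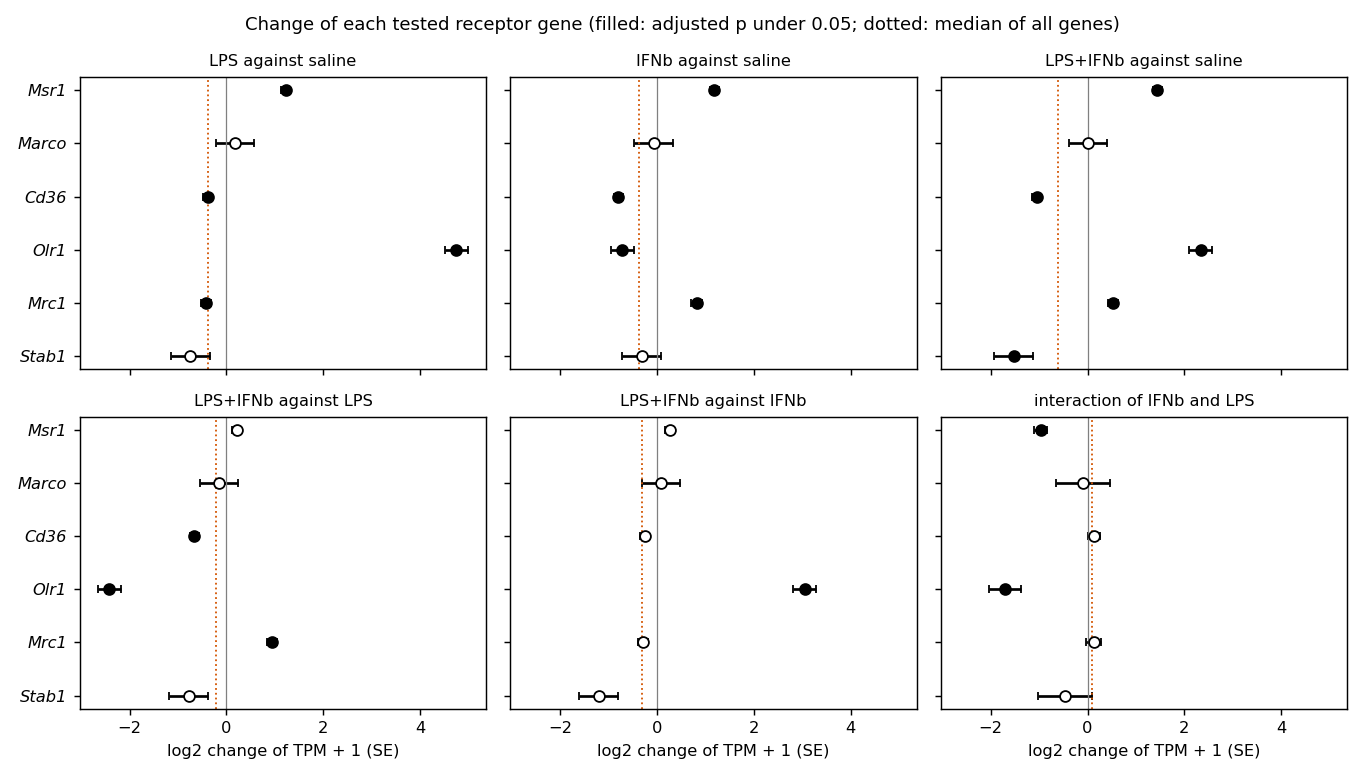
Difference of log2(TPM + 1) of the 6 tested receptors in 6 of the comparisons, with SE bars, filled points where the adjusted p was under 0.05 and a dotted line at the median of all genes. Msr1 lies right of 1 in the 3 comparisons with saline, Olr1 reaches 4.75 with LPS, and Cd36 and Mrc1 with LPS lie on the dotted line, where median-ratio scaling turned their sign.

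The 7 genes together held 1573 and 1430 TPM in the LPS libraries, 1171 and 1106 TPM in the IFNb libraries and 1018 and 1008 TPM in the LPS+IFNb libraries, against 1487 and 1527 TPM in the saline libraries. In these unscaled values the sum was lower in both groups that had received IFNb, and the LPS and saline libraries overlapped. Median-ratio scaling divides the libraries by 1.22 and 1.42 in saline and by 0.788 and 0.806 in LPS+IFNb. Its factors are 0.937 and 0.970 in LPS and 1.02 and 0.986 in IFNb, so the order of the groups depends on the scaling. Cd36 made up the largest part of the sum in every library.

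For each receptor the 3 genes with the most similar pattern were taken by Pearson's r of log2(TPM + 1) over the 8 libraries, as a description, among about 7035 protein-coding genes with a mean log2 of at least 3. The libraries of a group share their treatment, so high values are usual. Msr1 was most like the chemokine gene Ccl2 (r = 0.995), which had a mean of 1235 TPM with LPS, 658 with IFNb and 2254 with LPS+IFNb, against 8.77 in saline, and next like Clic4 (0.995) and Tarm1 (0.994). Olr1 was most like Picalm, a clathrin adaptor gene (r = 0.995), and then the chemokine gene Cxcl3 and the caveolin gene Cav1. Cav1 averaged 283 TPM with LPS, 7.09 with IFNb and 44.0 with LPS+IFNb, against 14.7 in saline. Mrc1 was most like Cab39l, the lysosomal membrane gene Lamp2 and Cd200r4, and Cd36 was most like Gngt2, the mitochondrial gene mt-Nd5 and Nemf (r between 0.992 and 0.997 for these 6).

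The receptors with wide replicate gaps had other neighbours. Marco was most like Dcn, which encodes the matrix proteoglycan decorin (r = 0.976), then Slc16a3 and Fmn1. Stab1 was most like Nisch (r = 0.974), whose 3′ end lies 2288 bases upstream of the start of Stab1 on the same strand of chromosome 14, then Cln6 and Cnot3. Whether strand was used in counting is not given in the sources used here. Cd163, at its low level, was most like Rab34, Gas2l1 and Gsk3a (0.958 to 0.972).

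Other scavenger receptors did not move as a group. Of 16 listed, 9 were tested, and with LPS 1 rose and 3 were lower, near the 12.8% and 41.3% of all genes, with a median change of -0.19 beside -0.38. Cxcl16, whose product is both a receptor for oxidised lipoprotein and a chemokine, had 274 and 251 TPM in the LPS libraries against 98.7 and 86.7 TPM in the saline libraries (1.49 ± 0.13, adjusted p = 0.000218, limma). With IFNb 2 rose and 2 were lower (13% and 38.6% of all genes), with a median of -0.29 beside -0.37. Scarf1, an endothelial-type scavenger receptor, had 17.0 and 17.9 TPM in the IFNb libraries against 3.09 and 4.45 TPM in the saline libraries (1.97 ± 0.16, adjusted p = 0.000177). The sum of 5 endothelial markers moved with it, at 31.4 and 48.0 TPM in the IFNb libraries, with 1 of the 5 listed at 0 in both, against 4.30 and 4.63 TPM in the saline libraries. Most of it was Kdr, at 29.3 and 45.9 TPM in the IFNb libraries, and the part of such cells in the Scarf1 values was not tested. Scarb1, the high-density lipoprotein receptor, was lower in all 3 comparisons with saline, by -1.10, -0.92 and -1.57 for LPS, IFNb and LPS+IFNb, and median-ratio scaling ended the IFNb call (-0.54, adjusted p = 0.0829, limma).

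Of the 3 other mannose receptor family genes 2 were tested. Pla2r1, a phospholipase A2 receptor, had 4.98 and 3.80 TPM in the IFNb libraries against 0.223 and 0.623 TPM in the saline libraries (1.93 ± 0.28, adjusted p = 0.00202, limma). With LPS it was not called (-0.15 ± 0.28, adjusted p = 0.688). Ly75, which encodes the endocytic receptor DEC-205, moved the other way with IFNb, at -0.86 ± 0.14 (adjusted p = 0.00317). With LPS Ly75 rose by 0.65 ± 0.14 (adjusted p = 0.00852).

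All 14 listed genes for lipid handling, which follows uptake by Cd36, Msr1 and Olr1, were tested. With LPS 2 rose and 8 were lower, where 12.8% of all genes rose and 41.3% were lower. With IFNb 2 rose and 10 were lower (13% and 38.6% of all genes), and with LPS+IFNb 2 rose and 11 were lower (15.2% and 54.1%), each against saline. The median changes were -0.75, -0.70 and -1.11, beside -0.38, -0.37 and -0.62 for all genes, and with median-ratio scaling 5, 4 and 6 were lower. Pparg, the lipid-sensing nuclear receptor known to drive Cd36, had 17.5 and 13.5 TPM in the LPS libraries, 20.9 and 24.0 TPM in the IFNb libraries and 6.75 and 8.35 TPM in the LPS+IFNb libraries, against 79.1 and 65.4 TPM in the saline libraries. Like Cd36, it was lowest with LPS+IFNb and highest in saline. Its LPS level lay below its IFNb level, where that of Cd36 lay above. For Pparg this difference was not called (-0.51 ± 0.18, adjusted p = 0.0599, limma). Abcg1, a cholesterol exporter, was lower with LPS (-3.01 ± 0.13, adjusted p = 1.25e-05) and higher with IFNb (0.79 ± 0.13, adjusted p = 0.00353).

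Of 13 listed genes for the uptake of apoptotic cells, 11 were tested. With LPS 1 rose and 5 were lower (12.8% and 41.3% of all genes), with a median of -0.34 beside -0.38 for all genes. With IFNb 3 rose and 6 were lower (13% and 38.6% of all genes), with a median of -0.42 beside -0.37. Median-ratio scaling gave 3 higher and 2 lower with LPS (20.2% and 16.7% of all genes). With IFNb it gave 5 higher and 3 lower (18.0% and 14.1%). The integrin gene Itgb5 and the ligand gene Gas6 were among those lower with both, whereas Mertk and Itgav were called in opposite directions. Median-ratio scaling ended the call of Gas6 with LPS (-0.18, adjusted p = 0.373, limma) and that of Itgav with IFNb (-0.03, adjusted p = 0.916). The calls of Itgb5 and Mertk held. The receptor kinase gene Mertk had 18.5 and 17.1 TPM in the LPS libraries and 81.4 and 83.3 TPM in the IFNb libraries, against 49.4 and 51.6 TPM in the saline libraries. LPS was lowest and IFNb highest, while the LPS+IFNb libraries, at 42.6 and 50.3 TPM, overlapped the saline ones. Axl, a related kinase gene, rose with IFNb (2.89 ± 0.35, adjusted p = 0.00098, limma), and the integrin gene Itgav rose with LPS (2.28 ± 0.12, adjusted p = 2.84e-05).

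Of 9 listed genes for haem and iron handling, 8 were tested. With LPS 1 rose and 5 were lower, where 12.8% of all genes rose and 41.3% were lower, with a median of -0.54 beside -0.38 for all genes. With IFNb none rose and 5 were lower (13% and 38.6% of all genes), with a median of -0.80 beside -0.37. With LPS+IFNb none rose and 6 were lower (15.2% and 54.1% of all genes), with a median of -1.07 beside -0.62. With median-ratio scaling 2 were higher and none lower with LPS, and 4 were lower with IFNb and 4 with LPS+IFNb. Slc48a1, a haem transporter gene, had 27.7 and 27.1 TPM in the LPS+IFNb libraries against 82.1 and 81.2 TPM in the saline libraries (-1.54 ± 0.10, adjusted p = 3.65e-05, limma).

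All 12 listed transcription factors of macrophage receptor programs were tested. With LPS 5 rose and 5 were lower, beside 12.8% and 41.3% of all genes. With IFNb 3 rose and 4 were lower, beside 13% and 38.6%, and with LPS+IFNb 6 rose and 4 were lower, beside 15.2% and 54.1%. The medians were 0.05, -0.31 and 0.23, against -0.38, -0.37 and -0.62 for all genes. Maf was lower with LPS (-1.14 ± 0.14, adjusted p = 0.000874, limma) and higher with IFNb (1.33 ± 0.14, adjusted p = 0.000531), the same directions as Mrc1 in the unscaled values. Cebpb, an inflammatory factor gene, rose with LPS (1.83 ± 0.17, adjusted p = 0.000322).

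Of 9 partner and shedding genes, 3 rose and 1 was lower with LPS, beside 12.8% and 41.3% of all genes, with a median of 0.27 beside -0.38. With IFNb 3 rose and 1 was lower, beside 13% and 38.6% of all genes, with a median of -0.07 beside -0.37. Tlr2, which works with CD36 in sensing lipopeptides, had 509 and 510 TPM in the LPS libraries and 19.9 and 17.4 TPM in the IFNb libraries, against 20.9 and 18.4 TPM in the saline libraries. It was high only where LPS had been given. The kinase genes Lyn and Fyn, whose products signal from CD36, rose with IFNb by 1.43 ± 0.07 (adjusted p = 1.82e-05, limma) and 1.74 ± 0.12 (adjusted p = 9.92e-05). The plot of genes around the receptors gives every tested list member.

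**Figure D5:**
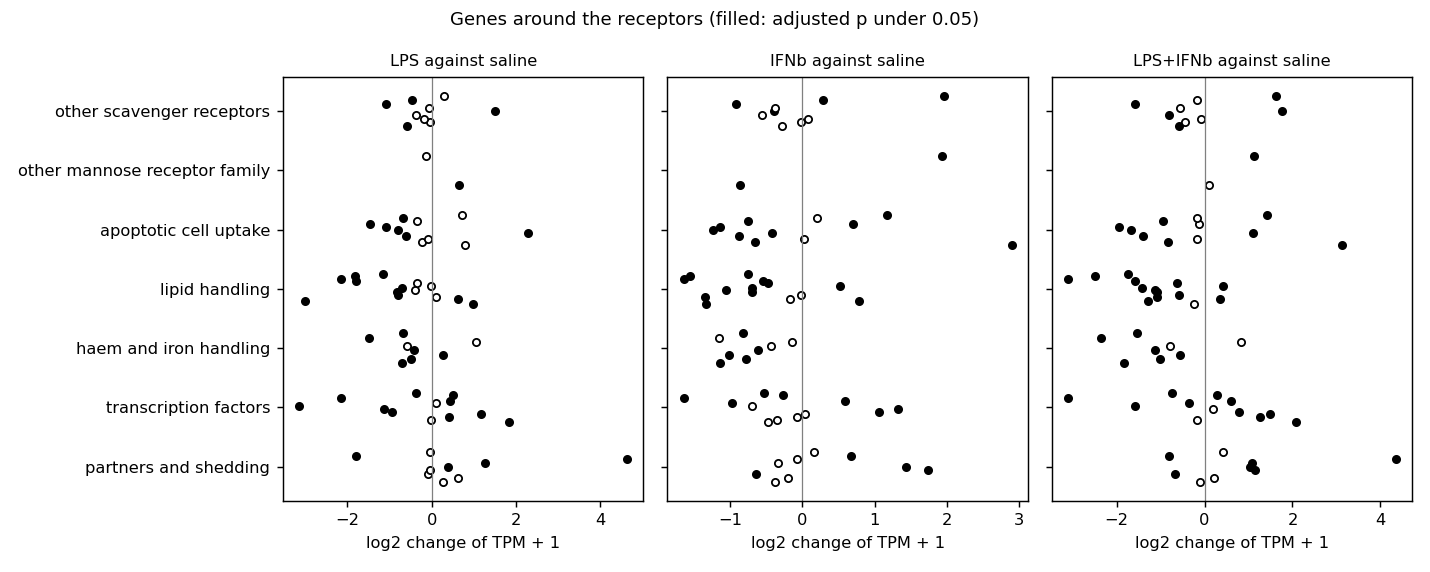
Difference of log2(TPM + 1) of each tested gene of the 7 lists against saline for LPS, IFNb and LPS+IFNb, 1 point per gene, filled where the adjusted p was under 0.05. Most filled lipid handling and haem and iron points lie left of 0, while the 2 mannose receptor family genes move in opposite directions with IFNb, and with median-ratio scaling no haem and iron gene was called lower with LPS.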

How the data were processed

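Total RNA of macrophages was made into 8 libraries by Illumina TruSeq preparation, per the labels' protocols. The authors deposited 1 table of TPM values per library for 88198 Ensembl transcripts. The submitters' processing notes name kallisto, a pseudoaligner, and mm10, with version, options and transcript set not given in the sources used here. TPM keeps no read number, so depth is unknown, no counting error can be stated and low values are the least precise. Reads shared between transcripts or paralogs are divided by estimation.

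Transcripts were matched to GENCODE M21 (86119 of 88198; the other 2079 held 1.01% to 1.95% of TPM and were left out) and summed by gene ID. Tests had been planned for counts or TPM, and since the files hold TPM no count test was run. Groups were taken from the titles. log2(TPM + 1) was fitted for genes that reached 1 TPM in 2 or more libraries, in limma 3.58.1 (R 4.3.3, intensity trend, 1 mean per group, 4 residual degrees of freedom); changes of low genes are understated. P-values are two-sided and adjusted over all genes of a comparison. The interaction takes the LPS and IFNb means from the sum of the LPS+IFNb and saline means. The fit was checked on simulated data.

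The receptors and gene lists were chosen with earlier results of these data known. Named genes were all 7 receptors, the 3 genes most like each, and for each list up to 3 per direction in order of adjusted p, of which a selection is printed. Alternatives were other scalings, pseudocount, filters, thresholds, a replicate block, other samples in the fit and each library left out. Sequences came from GENCODE and RefSeq. The values of a listed gene are not reported here.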

Additional observations from a re-analysis of the deposited data

Results flagged for a closer look

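Msr1 and Olr1 are listed here because the effect of LPS differed between macrophages that had and had not received IFNb, by a test of the interaction over all genes. For Msr1 the log2 effect of LPS was 0.26 after IFNb and 1.23 without it, a difference of -0.97 ± 0.13 (adjusted p = 0.0081, limma). This difference was below 0 in all 19 alternatives. Several of these, for either gene, alter only the test, filter or threshold and leave the difference as it is. For Olr1 the effect was 3.05 after IFNb and 4.75 without it, a difference of -1.70 ± 0.33 (adjusted p = 0.0305), also below 0 in all 19 alternatives, although its adjusted p was above the threshold in 9 of them. The LPS+IFNb libraries were taken later after IFNb than the IFNb libraries, so time since IFNb and the response to LPS cannot be told apart.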

How the results depend on the processing

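Of 834 alternative values for receptor changes, 738 kept direction and side of the threshold, 49 lost a call, 18 gained one and 29 changed sign, 2 of these being calls. The 834 include settings that alter only the test, filter or threshold, which cannot turn a sign. The 2 calls that changed sign were in LPS against saline with median-ratio scaling, Cd36 at 0.0783 and Mrc1 at 0.0322. That scaling also turned Cd36 in LPS+IFNb against IFNb (0.0752) and in the interaction (-0.0031), Mrc1 in LPS+IFNb against IFNb (0.0345), Stab1 with IFNb (0.0726) and Marco with IFNb (0.26) and in LPS+IFNb against LPS (0.0662). Marco turned with IFNb under upper-quartile scaling (0.0315) and with LPS+IFNb against saline when nuclear protein-coding genes were rescaled (-0.0411). With single libraries left out, Marco ranged from -0.24 to 0.59 (LPS against saline), -0.37 to 0.24 (IFNb against saline), -0.35 to 0.38 (LPS+IFNb against saline), -0.58 to 0.26 (LPS+IFNb against LPS), -0.28 to 0.45 (LPS+IFNb against IFNb), -0.17 to 0.66 (LPS against IFNb) and -0.51 to 0.33 (interaction). Likewise Stab1 ranged from -0.97 to 0.33 (IFNb against saline) and -1.11 to 0.19 (interaction), and Msr1 from -0.0444 to 0.143 (LPS against IFNb).

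The count of changed receptors in LPS against saline was 4, and 2 with median-ratio or upper-quartile scaling, an adjusted p under 0.01 or a 2-fold minimum, and 2 to 4 with a library left out (2 without LPS replicate 2). In IFNb against saline it was 4, and 2 with median-ratio scaling and 1 with the 2-fold minimum, and 3 to 4 with a library left out. LPS+IFNb against LPS gave 3, 1 with the 2-fold minimum, 4 in a fit to the groups compared, and 3 to 4 with a library left out (4 without either saline library, through Stab1). LPS+IFNb against saline gave 5, and 3 with median-ratio scaling, and 4 to 5 with a library left out. LPS against IFNb gave 3, and 2 to 3 with a library left out. LPS+IFNb against IFNb gave 1, but 2 with median-ratio or upper-quartile scaling, nuclear protein-coding genes, a minimum of 5 TPM, protein-coding transcripts alone or the replicate block, 3 in a fit to the groups compared, and 1 to 3 with a library left out (3 without either saline library). The interaction gave 2, and 1 with a pseudocount of 0.1, no filter, an adjusted p under 0.01 or the 2-fold minimum, and 1 to 2 with a library left out (1 without any LPS, LPS+IFNb or saline library). The causes were not tested.

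Replicate numbers did not pair the samples (correlations of deviations -0.16 to 0.14). With the replicate block Mrc1 in LPS+IFNb against IFNb passed at -0.29 (adjusted p = 0.0414, limma), and no other receptor call changed. A fit without 1 library assumes that the lone sample varies like the other groups. Over all genes, called rises and falls in LPS against saline were 12.8% and 41.3%, and 20.2% and 16.7% with median-ratio scaling. With IFNb they were 13% and 38.6%, and 18.0% and 14.1%, and with LPS+IFNb 15.2% and 54.1%, and 27.0% and 24.8%. Depth is unknown, which limits what low values such as those of Cd163 can show.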
